A study of Homo sapiens with 4 samples.

Results

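The genes described here encode the proteins of the small subunit of the cytosolic ribosome. They were chosen by name, as every gene symbol in the files that is RPSA, FAU or RPS followed by a number and an optional A, X or L, and 33 of the 33640 genes in the files met that rule. Their RNA was counted in 4 libraries of nuclei from H9 cells, a line of human primed pluripotent stem cells. The nuclei had been lightly fixed with formaldehyde, and poly(A) RNA was copied inside them by reverse transcription (RT) from a poly-T primer. RT followed tagmentation, the cutting and tagging of chromatin by the Tn5 transposase, in the Post libraries and preceded it in the Pre libraries. Each order has 1 library of RNA together with DNA at H3K27me3, a histone mark of repressed chromatin, and H3K27ac, a mark of active chromatin (RNA+DNA), and 1 was restricted to RNA (RNA only). The study compared these conditions while setting up its joint method. It reported that transcriptome profiles and sensitivity were unaffected by the order of RT and tagmentation. That rested on the correlation of transcriptomes and the number of genes obtained, which are other measures than the ratios below. Each condition is 1 library, so no difference below has a replicate check and no p-value can be given, and whether the 4 libraries came from 1 culture is not stated. The tagmentation steps that the RNA only libraries went through are not stated either.

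The small subunit, also called 40S, binds the mRNA and holds the decoding centre, where codons meet tRNAs. It is built on 18S rRNA, and its proteins line a head, a body and a platform. Nearly every growing cell transcribes the genes of these proteins strongly, and mRNAs of ribosomal proteins are among the most abundant in pluripotent stem cells. Most of these mRNAs begin with a 5′ terminal oligopyrimidine (TOP) run, a C followed by further pyrimidines, through which their translation responds to mTOR signalling. Several of the genes carry small nucleolar RNAs (snoRNAs), which guide rRNA modification, in their introns. Nuclei hold transcripts that have yet to be exported as well as mature mRNA that stays with them, and in counts from nuclei these are not separated.

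The first bases of the transcripts are shown because most mRNAs of ribosomal proteins begin with a TOP run, although the genes were chosen by name and not by it. RefSeq start sites on GRCh38.p14 were available for 26 of the 33 genes. At 19 of the 26, a start site was a C followed by at least 4 pyrimidines, against 4.07% of all 35116 promoters in the table and 7.77% of the 8408 matched genes that averaged 10 RPM or more, where RPM are a gene's counts per 1000000 counts of the library. Each line below runs from 40 bases before the start site to 10 bases from it, and capitals mark the pyrimidine run from the first transcribed base as far as the line reaches. The first 6 genes have the run, RPS27A at 1 of several annotated starts, and their levels are described below.
RPS23, minus strand, chr5:82278345-82278394: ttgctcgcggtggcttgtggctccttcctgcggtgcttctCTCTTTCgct
RPS27A, plus strand, chr2:55232648-55232697: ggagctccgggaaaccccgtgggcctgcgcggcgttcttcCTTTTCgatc
RPS12, plus strand, chr6:132814529-132814578: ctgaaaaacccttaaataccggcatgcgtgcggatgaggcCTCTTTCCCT
FAU, minus strand, chr11:65122125-65122174: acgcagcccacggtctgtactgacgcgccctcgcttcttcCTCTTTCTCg
RPS3, plus strand, chr11:75399478-75399527: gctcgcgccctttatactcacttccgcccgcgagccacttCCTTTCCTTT
RPS6, minus strand, chr9:19380227-19380276: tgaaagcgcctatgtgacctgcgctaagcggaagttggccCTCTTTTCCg
The following 3 lack it at their annotated starts, and so did RPS15, RPS26, RPS29 and RPS7.
RPS27L, minus strand, chr15:63157468-63157517: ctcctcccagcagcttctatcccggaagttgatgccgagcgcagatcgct
RPS4X, minus strand, chrX:72277239-72277288: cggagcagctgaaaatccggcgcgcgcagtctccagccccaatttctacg
RPS28, plus strand, chr19:8321456-8321505: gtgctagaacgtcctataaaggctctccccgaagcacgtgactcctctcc
RPS27L, the paralogue of RPS27, had the lowest level of the members and the ratio nearest to 0 in all 4 comparisons below. RPS4X and RPS28, whose annotated starts also lack the run, lay among the other members. After its first base, RPS28 has only pyrimidines as far as the line reaches. Whether a gene is counted with the run therefore depends on the exact base annotated as its start. The letters CTTCCG or their complement CGGAAG, the core of the site that ETS factors bind, occurred on either strand in the 250 bases before the start in 18 of the 26, against 16.5% of all promoters and 33.3% of the matched genes at 10 RPM. A match to letters is not a bound site.

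The libraries held 10089552 counts in Post, RNA+DNA, 8960724 in Pre, RNA+DNA, 6368721 in Post, RNA only and 9379073 in Pre, RNA only. All 12 markers of primed pluripotent cells were detected in every library, at 28.0 to 1073 RPM, and each of 16 markers of other cell types lay at or below 10.8 RPM, with 1 to 4 of them at 0. The Post, RNA only library stood apart from the rest. There, 34.8% of the counts fell in 6 genes whose symbols begin with the clone names FP236383 and FP671120, against 12.3% in Pre, RNA only, while these genes took 15.8% in Post, RNA+DNA and 10.7% in Pre, RNA+DNA. Because RPM values share a fixed sum, ratios are given relative to the median log2 ratio of the 11564 genes that averaged 10 RPM or more. That median for Post over Pre was −0.09 in the pair of RNA+DNA libraries and −0.44 in the pair of RNA only libraries. For RNA+DNA over RNA only it was 0.38 in the Post pair and 0.03 in the Pre pair. A relative log2 ratio of 1 is thus a change of 2-fold beyond that of the middle gene. Ratios were taken after adding 1 RPM, and intervals are 95% intervals for counting error only. The part that the large FP share has in the ratios of the small subunit genes was not tested. Centring cancels a change of a library total except through the added 1 RPM and the filter of 10 RPM. Without the 6 genes in the totals, the centred median of the small subunit genes in the RNA only pair was 0.983, against 0.977 with them. The uncentred median was 0.96 without them, against 0.54 with them. A change of totals does not show whether these genes and the small subunit genes moved together for 1 reason.

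All 33 small subunit genes were detected in every library, with 73 or more counts each. Summed, they made up 0.301% of the counts in Post, RNA+DNA (interval 0.298% to 0.304%), against 0.461% in Pre, RNA+DNA (0.457% to 0.466%). In the RNA only libraries they made up 0.591% in Post (0.585% to 0.597%), against 0.393% in Pre (0.389% to 0.397%). With the 6 FP genes taken out of the totals, the share was 0.907% in Post, RNA only and 0.448% in Pre, RNA only, and 0.358% in Post, RNA+DNA and 0.517% in Pre, RNA+DNA. With either total, the summed share was lowest in one Post library and highest in the other. The middle member had 73.5 RPM in Post, RNA+DNA and 124 RPM in Pre, RNA+DNA, and 126 RPM in Post, RNA only and 101 RPM in Pre, RNA only. Of the 33 genes, 31 had their lowest level in Post, RNA+DNA, against 12.2% of the 11564 genes, and 25 had their highest in Post, RNA only, against 4.78%. The 8 genes with their highest level in Pre, RNA+DNA were FAU, RPS15, RPS15A, RPS19, RPS2, RPS27L, RPS6 and RPS7. The share of all genes with their highest level in that library was not taken, so this count has nothing to be set against. RPS27L was lowest in Post, RNA only and RPS23 in Pre, RNA only.

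**Figure D1:**
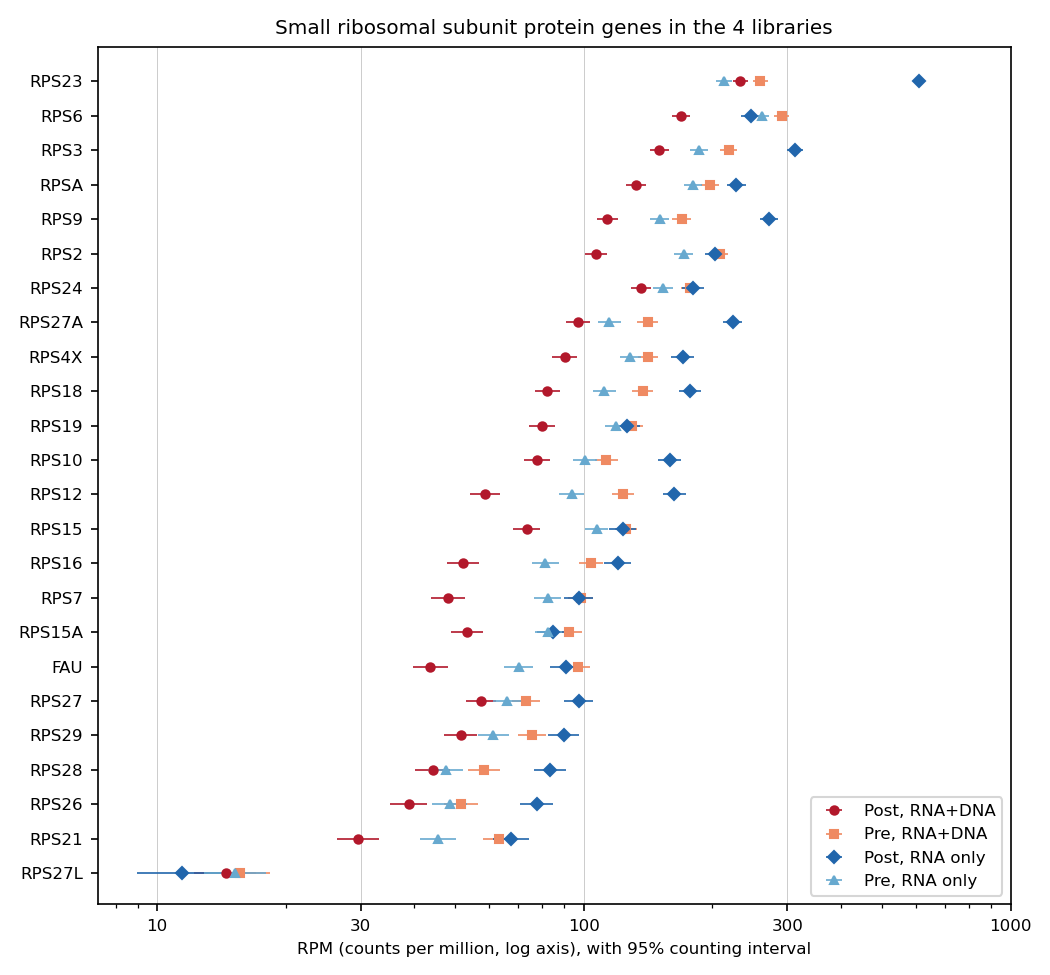
Level of 24 of the 33 small subunit genes, those named in the text, in the 4 libraries, in RPM on a log axis, with 95% counting intervals as bars. Genes are sorted by mean level, from RPS23 at the top to RPS27L at the bottom, and for most genes the symbol of Post, RNA+DNA lies furthest left and that of Post, RNA only furthest right.

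The order of the genes by level was much alike in the 4 libraries. The correlation of log2 RPM over the 33 genes ranged from 0.944 between Post, RNA only and Pre, RNA only to 0.993 between Pre, RNA+DNA and Pre, RNA only. These points share the lengths and mappability of the genes, so the values only describe how alike the profiles were. RPS24, a body protein, had a mean level of 303 RPM per kilobase once divided by the length of its annotated transcript. Among the lowest were RPS15A with 35.5 and RPS27L with 2.32 RPM per kilobase. The annotated transcripts range from 295 to 6110 bases, and that of RPS27L is the longest, so the level per kilobase depends on the transcript chosen.

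When DNA was profiled too, small subunit transcripts were less abundant with RT after tagmentation than with RT before it. Once centred on all genes, the 33 ratios of Post over Pre in the RNA+DNA pair had a median of −0.48, with a range from −1.03 for FAU to −0.01 for RPS27L and an SD of 0.27 over genes. The middle gene, RPS9, had a counting interval of −0.60 to −0.37. All 33 were below the middle of all genes, as 50% of all genes are by construction. At least 1.5-fold lower were 14 of the 33, against 2.02% of all 11564 genes, and at least 2-fold lower was 1, FAU, against 0.0951%. None was at least 1.5-fold higher, against 1.1%, or 2-fold higher, against 0.156%. For 31 genes the interval lay below 0, against 19.7% of all genes, a share that depends on counts per gene, and for RPS23 and RPS27L it held 0.

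FAU, RPS21 and RPS12 were among the members with the lowest ratios of this pair. FAU, which encodes a ubiquitin-like protein fused to a small subunit protein of the body, lies on chromosome 11 from 65120630 to 65122177. It had 43.7 RPM in Post, RNA+DNA (39.7 to 48.0) and 96.8 RPM in Pre, RNA+DNA (90.4 to 103), a relative log2 ratio of −1.03 (interval −1.22 to −0.89). RPS21 had 29.6 RPM in Post, RNA+DNA and 63.2 RPM in Pre, RNA+DNA, with a ratio of −0.97 (−1.21 to −0.79). Both intervals overlap, so the order of FAU and RPS21 lies within counting error. RPS12, a protein of the beak of the head whose introns hold SNORA33, SNORD100 and SNORD101, had 58.8 RPM in Post, RNA+DNA and 124 RPM in Pre, RNA+DNA, with a ratio of −0.97 (−1.12 to −0.83). Without centring on the median, 5 members were at least 2-fold lower, among them FAU, RPS21, RPS12 and RPS7, against 0.199% of all genes.

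The same genes were more abundant in Post than in Pre in the RNA only libraries. RPS12 had 163 RPM in Post, RNA only and 93.6 RPM in Pre, RNA only, a relative log2 ratio of 1.23 (1.11 to 1.37). RPS21 had 67.5 RPM in Post, RNA only and 45.5 RPM in Pre, RNA only, a ratio of 1.00. RPS12 thus had the higher ratio with RNA only, but its interval overlapped that of RPS21. The values of FAU in these libraries are given with those of RPS27A below.

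At the upper end of the RNA+DNA pair stood RPS27L, RPS23 and RPS27. RPS27, a zinc-binding protein of the platform, had 57.5 RPM in Post, RNA+DNA and 73.2 RPM in Pre, RNA+DNA, a relative log2 ratio of −0.25 (−0.42 to −0.09). RPS23, which lines the decoding centre, had 232 RPM in Post, RNA+DNA (223 to 242) and 259 RPM in Pre, RNA+DNA (249 to 270), a ratio of −0.06 (−0.15 to 0.02), so its position below the median of all genes was within counting error.

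In the RNA only pair the small subunit genes lay on the other side of the median. Their relative ratios of Post over Pre had a median of 0.98, with a range from 0.06 for RPS27L to 1.95 for RPS23 and an SD of 0.35 over genes. The middle gene, RPS29, had a counting interval of 0.81 to 1.15. All 33 were above the middle of all genes, and at least 2-fold higher were 13 of the 33, against 1.33% of all genes. At least 1.5-fold higher were 29 of the 33, against 5.26%, and none was at least 2-fold lower, against 0.0519%, or 1.5-fold lower, against 2.01%. The interval lay above 0 for 32 genes, against 18.8% of all genes, the exception being RPS27L. In RPM without centring, 31 members were higher in Post than in Pre, against 9.65% of all genes, and RPS6 and RPS27L were lower, the median ratio was 0.54, and 1 member, RPS23, was at least 2-fold higher, against 0.692% of all genes.

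RPS23, RPS27A, RPS9 and RPS28 had the highest ratios of the RNA only pair. RPS23 lies on the minus strand of chromosome 5 from 82273320 to 82278396. It had 611 RPM in Post, RNA only (592 to 630) and 213 RPM in Pre, RNA only (204 to 223), a relative log2 ratio of 1.95 (1.88 to 2.03). It took 10.3% of the counts of the members there, against 5.43% in Pre, RNA only. ATG10, an autophagy gene that overlaps RPS23 on the opposite strand, had 381 RPM in Post, RNA+DNA and 419 RPM in Pre, RNA+DNA, and 722 RPM in Post, RNA only and 359 RPM in Pre, RNA only. Its relative ratios of −0.04 in the RNA+DNA pair and 1.44 in the RNA only pair stood close to those of RPS23 in the first and below it in the second. The strand setting of the counting is not given in the sources used here, so reads of RPS23 and ATG10 cannot be told apart.

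RPS27A, which encodes ubiquitin fused to a head protein, had 223 RPM in Post, RNA only (212 to 235) and 115 RPM in Pre, RNA only (108 to 122), a ratio of 1.39 (1.28 to 1.51). RPS9, a body protein that binds the rRNA early in assembly, had 271 RPM in Post, RNA only and 151 RPM in Pre, RNA only, a ratio of 1.28 (1.19 to 1.39). RPS28, a small head protein beside the mRNA exit, had 83.5 RPM in Post, RNA only and 47.4 RPM in Pre, RNA only, a ratio of 1.24 (1.07 to 1.44). The intervals of RPS27A, RPS9 and RPS28 overlap one another, and that of RPS23 lies above all of them. With DNA the Post library had the lower level, and RPS9 had 114 RPM in Post, RNA+DNA and 169.7 RPM in Pre, RNA+DNA, a ratio of −0.48 (−0.60 to −0.37). RPS28 had 44.3 RPM in Post, RNA+DNA and 58.5 RPM in Pre, RNA+DNA, a ratio of −0.30 (−0.49 to −0.12).

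The lowest ratios of the RNA only pair belonged to RPS27L, RPS6, RPS15A and RPS19. RPS6, the target of the S6 kinases downstream of mTOR, had 246 RPM in Post, RNA only (234 to 259) and 261 RPM in Pre, RNA only (251 to 271), a relative log2 ratio of 0.35 (0.26 to 0.45). RPS15A, a body protein that contacts the rRNA core, had 84.8 RPM in Post, RNA only and 82.6 RPM in Pre, RNA only, a ratio of 0.47 (0.31 to 0.64). RPS19 had 126 RPM in Post, RNA only and 119 RPM in Pre, RNA only, a ratio of 0.52 (0.39 to 0.65). For RPS6, RPS15A and RPS19 the levels in RPM were close. Without centring their log2 ratios were −0.08, 0.04 and 0.08, so only that of RPS6 was below 0. Most of the size of their relative ratios came from the median of all genes, −0.44, which was lower in Post. When DNA was profiled, RPS6 had 169 RPM in Post, RNA+DNA (161 to 177) and 291 RPM in Pre, RNA+DNA (280 to 302), a ratio of −0.69 (−0.78 to −0.60). RPS15A had 53.3 RPM in Post, RNA+DNA and 92.5 RPM in Pre, RNA+DNA, a ratio of −0.69 (−0.86 to −0.54).

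**Figure D2:**
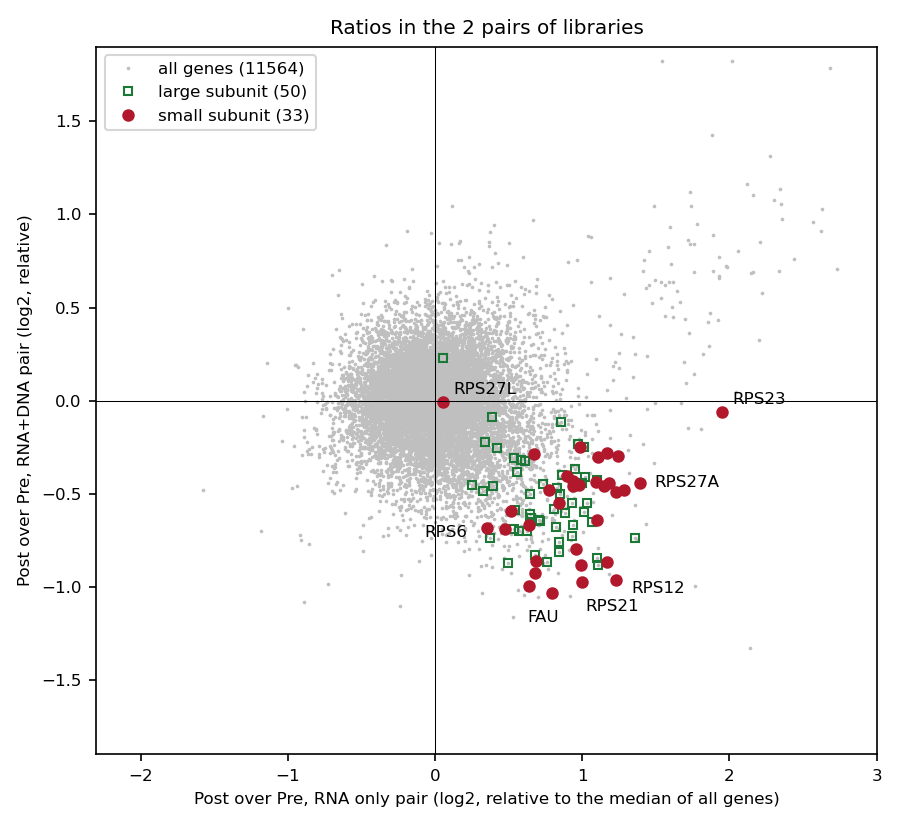
Relative log2 ratios of Post over Pre in the RNA only pair (horizontal axis) and in the RNA+DNA pair (vertical axis) for the 33 small subunit genes (filled circles), 50 large subunit genes (open squares) and all 11564 genes (grey), of which 5 lie outside the axes. The small subunit genes fill the lower right part of the plot, from RPS27L near the origin to RPS23 at 1.95 and −0.06, and RPS12 at 1.23 and −0.97 lies furthest from the line of equal ratios.

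With DNA all 33 small subunit genes were thus below the middle of all genes and with RNA only all were above it, as 25.6% of all genes were. By at least 1.2-fold in each direction this held for 30 of the 33, all but RPS23, RPS27 and RPS27L, against 5.27% of all genes. By at least 1.5-fold it held for 11, against 0.7%. The gap between the ratios of a gene in the pairs, RNA+DNA minus RNA only, had a median of −1.54. It was widest for RPS12 at −2.20, and that of RPS23, −2.01, came almost wholly from the RNA only pair. No library is in both pairs, and over the 33 genes Pearson's r between their ratios was 0.20 and Spearman's rho 0.25, and without RPS27L and RPS23 these were 0.31 and 0.30. The place of a gene within the list in one pair therefore told little of its place in the other.

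The second factor, profiling DNA or not, was compared within each order of RT. These comparisons use the same 4 libraries as those above and are not independent of them. In the Post pair, RNA+DNA over RNA only, the small subunit genes had a median relative log2 ratio of −1.36, and the middle gene, RPS26, had an interval of −1.57 to −1.18. At least 2-fold lower with DNA were 30 of the 33, against 2.32% of all genes, and none was at least 2-fold higher, against 0.0432%. By 1.5-fold 32 were lower, against 7.63%, and none was higher, against 1.34%, and without centring 16 were at least 2-fold lower, against 0.77%. The other members were RPS6 at −0.92 (−1.02 to −0.82), RPS24 at −0.78 (−0.90 to −0.67) and RPS27L at −0.07 (−0.46 to 0.38). RPS12 had the lowest ratio, −1.83, followed by RPS23 at −1.77 (−1.85 to −1.70), and their intervals overlap.

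In the Pre pair the same comparison gave small and even differences. The median relative log2 ratio of RNA+DNA over RNA only was 0.20, and the middle gene, RPS15, had an interval of 0.08 to 0.33. All 33 were above the middle of all genes, as 50% of all genes are by construction. The interval lay above 0 for 24 of them, against 7.58% of all genes. None was at least 1.5-fold apart in either direction, against 0.0605% higher and 0.156% lower of all genes, or 2-fold apart, against 0% higher and 0.0173% lower. The ratios reached from 0.01 for RPS27L to 0.44 for RPS21 (0.26 to 0.63), and FAU at 0.43 (0.29 to 0.58) stood next to RPS21. The SD over genes was 0.10, against 0.33 in the Post pair. The members thus differed among themselves least between the Pre libraries, where the median half-width of their counting intervals was 0.13.

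Ordered by their place in the subunit, the members of the head and those of the body and platform gave overlapping values. The 14 head genes had median relative ratios of Post over Pre of −0.53 in the RNA+DNA pair and 1.04 in the RNA only pair. The 18 body and platform genes had −0.49 and 0.93. In the head, RPS3, which sits at the mRNA entry channel, had 150.3 RPM in Post, RNA+DNA and 218 RPM in Pre, RNA+DNA, and 312 RPM in Post, RNA only and 186 RPM in Pre, RNA only. In the platform, RPSA, known also as the laminin receptor, had 132 RPM in Post, RNA+DNA and 198 RPM in Pre, RNA+DNA, and 228 RPM in Post, RNA only and 180.2 RPM in Pre, RNA only. RPS3 had relative ratios of −0.44 and 1.18 in the RNA+DNA pair and the RNA only pair, and RPSA of −0.48 and 0.77. RPS2, a body protein at the mRNA entry, had 107 RPM in Post, RNA+DNA and 208 RPM in Pre, RNA+DNA, and 203 RPM in Post, RNA only and 171 RPM in Pre, RNA only. Its relative ratio in the RNA+DNA pair, −0.86 (−0.98 to −0.76), was among the lower ones.

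The 9 genes that hold 19 snoRNAs in their introns had median ratios of −0.46 in the RNA+DNA pair and 0.96 in the RNA only pair, against −0.52 and 0.98 for the 24 genes without one. The 19 genes with the pyrimidine run at an annotated start had −0.48 and 1.00, against −0.46 and 0.84 for the 7 matched genes without it there. Ratios ranged from −1.03 to −0.06 with the run and from −0.93 to −0.01 without it in the RNA+DNA pair. In both splits the ranges of the groups overlapped.

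RPS27L and RPS27 encode paralogous proteins, and RPS27L is known as a target of p53. RPS27L had 14.5 RPM in Post, RNA+DNA (12.2 to 17.0) and 15.6 RPM in Pre, RNA+DNA (13.1 to 18.4), and 11.5 RPM in Post, RNA only (8.98 to 14.4) and 15.2 RPM in Pre, RNA only (12.9 to 18.0). The 4 intervals overlap, and all 4 relative ratios of RPS27L lay within counting error of 0. RPS27 had 57.5 RPM in Post, RNA+DNA and 73.2 RPM in Pre, RNA+DNA, and 97.2 RPM in Post, RNA only and 66.2 RPM in Pre, RNA only. Its relative ratio in the RNA only pair was 0.98 (0.83 to 1.15), above the interval of RPS27L, −0.40 to 0.44. RPS27L was thus the only member of the 33 whose counting interval held 0 in all 4 comparisons, with 73 to 146 counts behind each level.

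The members that carry a ubiquitin-like fusion, RPS27A and FAU, gave unlike ratios. In the RNA+DNA libraries RPS27A had 96.9 RPM in Post and 141 RPM in Pre, a relative ratio of −0.44 (−0.57 to −0.33), above that of FAU. FAU had 90.6 RPM in Post, RNA only (83.4 to 98.3) and 70.4 RPM in Pre, RNA only (65.1 to 75.9), a ratio of 0.80 (0.64 to 0.97), below that of RPS27A. SYVN1, which overlaps FAU on the same strand, had a ratio of −0.18 in the RNA+DNA pair and 0.78 in the RNA only pair. Reads in the shared stretch cannot be told apart here.

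Mutations of RPS7, RPS10, RPS19, RPS24 and RPS26 are among the known causes of Diamond-Blackfan anaemia, a congenital failure of red cell production. These 5 genes had median ratios of −0.44 in the RNA+DNA pair and 0.68 in the RNA only pair, against −0.48 and 0.98 for all 33. RPS7, a body protein, had 48.1 RPM in Post, RNA+DNA and 98.4 RPM in Pre, RNA+DNA, and 97.2 RPM in Post, RNA only and 82.2 RPM in Pre, RNA only. It had a lower level in Post than in Pre when DNA was profiled, with a relative ratio of −0.93 (−1.10 to −0.78). RPS24, a body protein, had 136 RPM in Post, RNA+DNA and 178 RPM in Pre, RNA+DNA, and 180.3 RPM in Post, RNA only and 153 RPM in Pre, RNA only. Its ratio in the RNA+DNA pair was −0.29 (−0.39 to −0.18), above that of RPS7. RPS19, the gene most often mutated in the disease, had 80.0 RPM in Post, RNA+DNA and 129.6 RPM in Pre, RNA+DNA, a ratio of −0.60 (−0.73 to −0.47). RPS26, which sits near the mRNA exit, had 38.9 RPM in Post, RNA+DNA and 51.6 RPM in Pre, RNA+DNA, and 77.7 RPM in Post, RNA only and 48.5 RPM in Pre, RNA only. RPS10, a head protein at the mRNA entry, had 77.7 RPM in Post, RNA+DNA and 113 RPM in Pre, RNA+DNA, and 159 RPM in Post, RNA only and 101 RPM in Pre, RNA only. RPS26 and RPS10 were thus both lowest in Post, RNA+DNA and highest in Post, RNA only. The readthrough gene RPS10-NUDT3, which overlaps RPS10 on the same strand, had more counts than RPS10 itself, with 202 RPM in Post, RNA+DNA and 246 RPM in Pre, RNA+DNA, and 255 RPM in Post, RNA only and 249.9 RPM in Pre, RNA only. Its relative ratios were −0.19 and 0.47 in the RNA+DNA pair and the RNA only pair, on the same sides of 0 as those of RPS10, −0.44 and 1.09. Reads in the stretch that RPS10 and RPS10-NUDT3 share cannot be told apart here.

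RPS4X lies on the X chromosome and had 90.1 RPM in Post, RNA+DNA and 141 RPM in Pre, RNA+DNA, and 170.4 RPM in Post, RNA only and 129 RPM in Pre, RNA only. Its relative ratios were −0.55 (−0.68 to −0.43) and 0.84 (0.72 to 0.96) in the RNA+DNA pair and the RNA only pair. PIN4, a prolyl isomerase gene that overlaps it on the opposite strand, had ratios of −0.37 and 0.65. As the strand setting is not given, reads of RPS4X and PIN4 cannot be told apart where they overlap. In all, 17 members are overlapped by another protein-coding or long noncoding gene of GENCODE release 44, 5 on the same strand and 13 on the opposite one, with RPS9 among both. Without them, the median of the other 16 in the RNA+DNA pair was −0.66, against −0.48 for all 33. In the RNA only pair the 16 had 0.97, against 0.98. For RNA+DNA over RNA only they had −1.41, against −1.36, in the Post pair and 0.21, against 0.20, in the Pre pair. The proteins of the small subunit also have many processed pseudogenes, and GENCODE lists 498 pseudogene symbols named after 32 of the 33 members, of which 0 are in the files. How many reads of a member were lost to a pseudogene, or gained from one, was not tested. RACK1, a scaffold protein of the head that the naming rule leaves out, had 102 RPM in Post, RNA+DNA and 187 RPM in Pre, RNA+DNA, and 177 RPM in Post, RNA only and 163 RPM in Pre, RNA only. Its ratios, −0.77 in the RNA+DNA pair and 0.56 in the RNA only pair, fell within the range of the 33.

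The genes of the large subunit, 60S, gave like values. Of 52 found, 50 averaged 10 RPM or more, and their median relative ratios of Post over Pre were −0.57 in the RNA+DNA pair and 0.75 in the RNA only pair. With DNA, 49 of the 50 lay below the middle of all genes, the exception being RPL39L, and in the RNA only pair all 50 lay above it. The large subunit genes made up 0.477% of the counts in Post, RNA+DNA and 0.729% in Pre, RNA+DNA, and 0.802% in Post, RNA only and 0.648% in Pre, RNA only. The sum of small subunit counts per large subunit count was 0.631 in Post, RNA+DNA (0.622 to 0.640) and 0.633 in Pre, RNA+DNA (0.625 to 0.641). Post over Pre, this balance had a ratio of 0.997 (0.978 to 1.02), so a difference between the RNA+DNA libraries was within counting error. In the RNA only pair it was 0.737 in Post (0.727 to 0.747) and 0.606 in Pre (0.598 to 0.614). Without RPS23, the values were 0.582 in Post, RNA+DNA (0.574 to 0.591) and 0.598 in Pre, RNA+DNA (0.590 to 0.605), and 0.661 in Post, RNA only (0.652 to 0.670) and 0.573 in Pre, RNA only (0.566 to 0.581). Post over Pre, the balance then had a ratio of 0.974 (0.956 to 0.994) in the RNA+DNA pair and 1.15 (1.13 to 1.17) in the RNA only pair. RPS23 was left out after values were seen, and no large subunit gene was left out. Whether the balance of the RNA+DNA libraries differed by more than counting error thus depended on that choice. In the RNA only pair the ratio with RPS23 was 1.22 (1.19 to 1.24), in the same direction as without it.

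**Figure D3:**
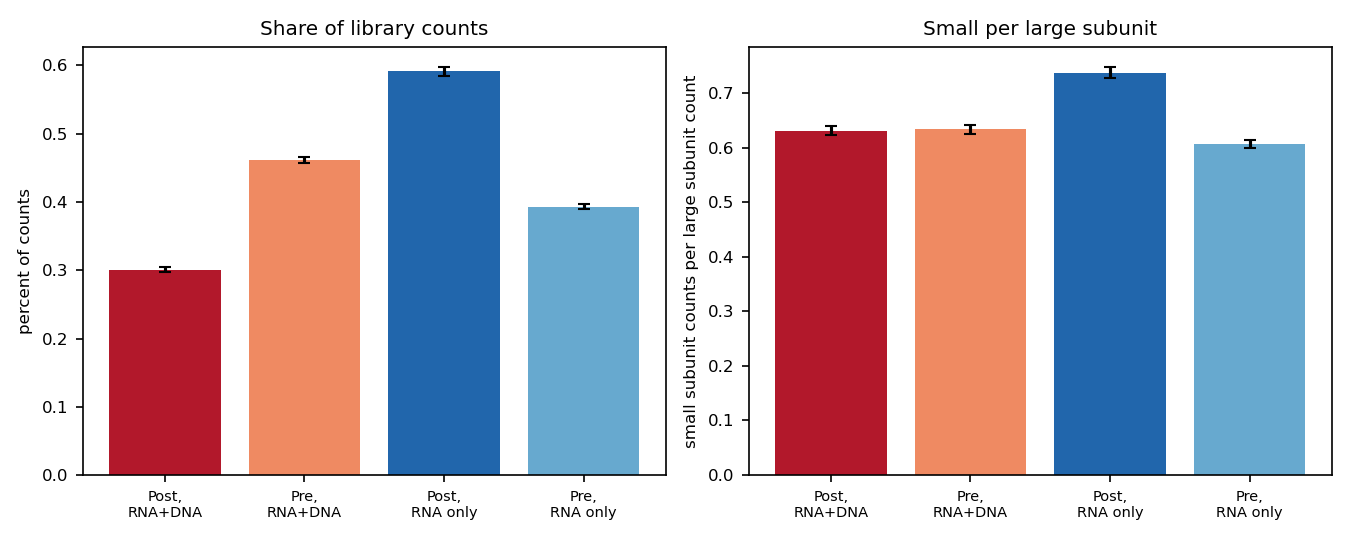
Left, summed counts of the 33 small subunit genes in percent of all counts of a library, and right, their counts per count of the 52 large subunit genes, with 95% counting intervals. The share runs from 0.301% in Post, RNA+DNA to 0.591% in Post, RNA only, and the ratio of the subunits is near 0.63 in both RNA+DNA libraries and highest, 0.737, in Post, RNA only.

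Of the other 6 lists of ribosomal, translation and housekeeping genes, 5 had medians nearer to 0 in both pairs. The 6 FP genes, whose share is given above, had medians of 0.36 in the RNA+DNA pair and 1.89 in the RNA only pair. The proteins of the small subunit of the mitochondrial ribosome, encoded in the nucleus, had median ratios of −0.21 in the RNA+DNA pair and 0.32 in the RNA only pair over 27 genes. For 19 other TOP mRNAs, such as those of elongation factors, the medians were −0.27 and 0.36. For 20 initiation factors they were −0.36 and 0.08, and for 38 proteins that assemble the small subunit −0.23 and −0.01. For 22 housekeeping genes outside translation they were −0.30 and 0.52. The small subunit genes thus had the highest median of these 7 lists with RNA only, and with DNA the large subunit genes alone had a lower one. With 1 library per condition, no test of the difference between lists was made.

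**Figure D4:**
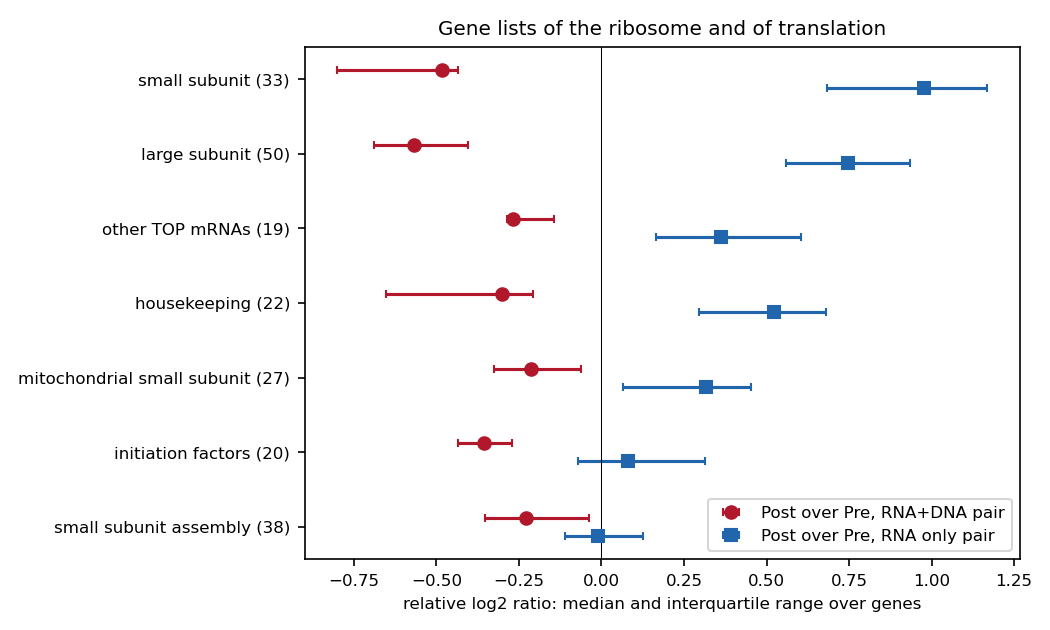
Relative log2 ratios of Post over Pre for 7 gene lists, as median (symbol) and interquartile range (bar) over the genes that averaged 10 RPM or more, whose number stands in parentheses. The small and large subunit lists lie furthest from 0 on both sides, at −0.48 and 0.98 for the small subunit and −0.57 and 0.75 for the large.

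The profile over the 4 libraries was most like that of the large subunit. Among 2016 other genes that averaged 100 RPM or more, the 50 whose centred log2 levels lay nearest to the mean of the 33 members included 24 large subunit genes, 48% of the 50 against 1.59% of the 2016. A further 7 were housekeeping genes, 4 were other TOP mRNAs, 1 was a pluripotency marker and 14 were in none of the lists. The nearest 5 were RPL15, RPL19, GAPDH, RPL41 and RPL23. GAPDH, a glycolytic enzyme, had 333 RPM in Post, RNA+DNA and 538 RPM in Pre, RNA+DNA, and 614 RPM in Post, RNA only and 478 RPM in Pre, RNA only. Likeness was measured by the Euclidean distance over 4 libraries, which is a description of these libraries.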

How the data were processed

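RNA counts of 4 libraries of H9 nuclei, 1 per condition, were used. The authors deposited counts per gene symbol, as whole numbers without normalization. The study's methods, written for its single-cell data, describe barcodes matched with Bowtie, adapters removed with Trim Galore, alignment to GRCh38 with STAR, uniquely mapped reads only, and duplicates removed by position and molecular identifier. The sources do not say if each of these steps was used for the present libraries, and the annotation and strand setting are not given in the sources used here. The submitters' processing notes list Bowtie 1.3.1, Bowtie2 2.5.3, STAR 2.7.11b, Trim Galore 0.6.10 and SAMtools. A further 60 barcode columns, which no label explains, were not used and held at most 0.325% of a file's counts.

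Counts were divided by library totals of 6368721 to 10089552 to give RPM. Ratios were taken as log2 of RPM plus 1 and centred on the median of the 11564 genes that averaged 10 RPM or more. Genes were called by size, at 2-fold, with no test. Exact 95% Poisson intervals of levels, Clopper-Pearson intervals of shares and exact conditional intervals of ratios cover counting error only, as do the normal intervals, on the log scale, of the balance of subunit counts between libraries. The members and the gene lists were chosen with earlier results of these data known. Values are given for every library for the 4 members at either end of each order comparison, the 5 most and 3 least abundant, RPS27A, FAU, RPS27L, RPS27, RPS4X, RPSA and the Diamond-Blackfan genes, except for some members whose single values are not reported here, although they enter the sums, counts and medians over all 33. RPS2 and the overlapping genes ATG10, PIN4, SYVN1 and RPS10-NUDT3 were named after values were seen. Places come from GENCODE 44 and start sites from RefSeq (GRCh38.p14). Start sites of 7 members were not matched. Alternatives were TMM (edgeR 4.0.16) and median-of-ratios factors (DESeq2 1.42.0), other totals, filters, pseudocounts and folds, and thinned counts. Ratios, calls and counting intervals were also run on simulated counts with known changes and counting error alone. That run checks the calculation and does not cover differences between replicate libraries. Computation used Python 3.11.15 (numpy 2.4.6, scipy 1.17.1, pandas 2.3.3, matplotlib 3.10.9) and R 4.3.3.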

Additional observations from a re-analysis of the deposited data

Results flagged for a closer look

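The median of the 33 small subunit genes lay on opposite sides of the median of all genes in the pairs, at −0.48 for Post over Pre in the RNA+DNA pair and 0.98 in the RNA only pair. That difference was not tested, since each condition is 1 library. Nor was it tested for the 11 single members that were at least 1.5-fold lower in Post than in Pre with DNA and at least 1.5-fold higher with RNA only, both on the centred scale, against 0.7% of all genes. The gap between the relative log2 ratios, RNA+DNA pair minus RNA only pair, is given for 8 of them and was −2.20 for RPS12, −1.97 for RPS21, −1.88 for RPS16, −1.83 for FAU, −1.74 for RPS18, −1.60 for RPS7, −1.55 for RPS2 and −1.31 for RPS15. Over all 33 members the gap ranged from −2.20 to −0.07.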

How the results depend on the processing

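No paired analysis was possible because each condition is 1 library. The direction of the list median in each of the 4 comparisons was the same under every alternative run. Centred medians left the counting interval of the middle member in 2 cases. With no filter on low genes, Post over Pre in the RNA only pair had 0.76. With only the 16 members that overlap no other gene, an alternative chosen after seeing the data, the median of the RNA+DNA pair was −0.66. The interval of the middle member belongs to 1 gene and does not measure the spread of a median over the list. Within it, the centred median of the RNA only pair moved from 0.98 to 0.90 with a filter of 1 RPM or a pseudocount of 5 RPM. With a filter of 50 RPM it was 1.03. Without centring, the RNA only pair had 0.54 by library totals, against 0.93 by TMM, 0.93 by median-of-ratios, 0.97 without the 20 most abundant genes and 0.96 without the FP genes. The Post pair, RNA+DNA over RNA only, had −0.98 by totals and −1.35 by each of these 4 scalings.

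Counts of members called depended on the settings. The share of all genes called was taken only in the main setting, at 1.5-fold and without centring. Under the other settings it is therefore not known whether the count over all genes moved as well. At least 2-fold lower in the RNA+DNA pair were 4 with a filter of 1 RPM, 2 with 50 RPM and 5 with none. The count was 0 with a pseudocount of 5 RPM and 3 with thinned counts. It was 5 without centring, against 0.199% of all genes, and 14 at 1.5-fold, against 2.02%. At least 2-fold higher in the RNA only pair were 18 with a filter of 50 RPM and 14 with thinned counts. The count there was 6 with no filter, 1 without centring, against 0.692% of all genes, and 29 at 1.5-fold, against 5.26%. It was 15 with a pseudocount of 0.5 RPM and with each of the 4 other scalings, against 13 in the main setting. In the Post pair, RNA+DNA over RNA only, 16 were at least 2-fold lower without centring, against 0.77% of all genes. The summed share without the FP genes was 0.358% in Post, RNA+DNA, 0.517% in Pre, RNA+DNA, 0.907% in Post, RNA only and 0.448% in Pre, RNA only, and without the 20 most abundant genes 0.369%, 0.532%, 0.938% and 0.461% in the same libraries. Small subunit counts per large subunit count without RPS23, an alternative chosen after seeing the data, were 0.582, 0.598, 0.661 and 0.573 in the same libraries. Of the 132 ratios of single members over the 4 comparisons, 50 left their counting interval with no filter, 2 with a filter of 1 RPM, 1 with a pseudocount of 5 RPM and 0 with a pseudocount of 0.5 RPM or the thinned counts. The other scalings move all genes of a library alike, which centring cancels, so they could hardly move these ratios or the centred medians. With a filter of 50 RPM, 128 of these ratios remained and 0 left their interval. The cause of these differences was not tested. Counting error, with a half-width of up to 0.42 on the log2 scale for RPS27L and with a median half-width of 0.13 to 0.15 over the members, limits the order of single genes.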
